A study of Mus musculus with 15 samples.

Results

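The genes described here encode the alpha chains of collagen, and they were followed in the lungs of mice that had breathed in or aspirated rod-like carbon nanotubes (rCNT). A gene was taken as a member if its symbol had the form of Col, a number, the letter a and a number, with the symbol read from the RefSeq accession of the array probe. Probes had to be well above background, in the channel of the sample, in a minimum of 3 samples of any 1 group, and the brightest kept probe stood for its gene. The annotation table held 44 such genes, 43 of them had a probe, and 33 were kept among the 25251 genes and unnamed transcripts tested. Of those 33, 27 were well above background in all 15 samples. Another 4 reached the minimum in 1 group alone: Col6a5, Col22a1 and Col24a1 through the lungs with aspirated rCNT, and Col15a1 through those with inhaled rCNT.

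Each collagen is assembled from alpha chains that wind into a helical rod, so the chains of 1 molecule are made together and are hydroxylated, folded, trimmed and cross-linked by dedicated enzymes. Fibrillar collagens of types I, III and V carry tension in the interstitium, airways and vessels of the lung, and are made mainly by fibroblasts and smooth muscle. Type IV chains build the network of the basement membrane under alveolar epithelium and capillaries, type VI forms beaded filaments beside it, and type VII anchors epithelial basement membranes to the matrix below. Other members decorate fibrils, span the plasma membrane or carry a fragment that acts on vessels.

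The lungs came from female C57BL/6 mice of 7 to 8 weeks, collected 24 h after the last exposure, and total RNA of lung tissue was hybridised to 2-colour Agilent arrays. The groups were aspirated rCNT (4 samples, a daily 10 µg by oropharyngeal aspiration for 4 days, in 50 µl of the vehicle), aspirated PBS (4 samples, the vehicle, phosphate-buffered saline or PBS, by that route), inhaled rCNT (3 samples, 4 h a day on 4 days at 6.2 to 8.2 mg/m3) and untreated (4 samples). Untreated replicate 1 carries conflicting labels, a title with PBS aspiration and an exposure field without treatment, and it was counted as untreated. Whether each sample holds RNA of 1 mouse or of several is not stated in the labels, and p-values therefore speak of variation among samples that may be partly technical.

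All aspiration samples lay on slide 1, while inhaled replicate 1 and untreated replicates 1 to 3 lay on slide 2, and inhaled replicates 2 and 3 and untreated replicate 4 on slide 3. Between 54.6% and 64.7% of spots were well above background and none was saturated. The lowest and highest correlations between replicates of a group were 0.994 and 0.998 on the log2 scale. On the first principal component the 4 aspirated rCNT samples scored 44.35 to 49.14, aspirated PBS -1.11 to 0.13, inhaled rCNT 0.91 to 6.39 and the untreated samples, replicate 1 included, -51.76 to -47.71. Every measured marker of endothelium and of alveolar type 1 cells was well above background in all 15 samples. Levels below are log2 intensities after background correction and quantile normalisation, and a log2 fold change is given with its standard error (SE). A gene was called when limma's p, adjusted by Benjamini-Hochberg over all 25251, was below 0.05. Levels of different genes come from different probes and were not set against each other. A summed intensity adds the unlogged levels of the probes in a list. Its brightest probes therefore weigh most, and it can move otherwise than the list's median.

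Promoter windows of 250 bases before to 50 bases after the transcription start were available for 27 of the 33 kept genes (29 windows, from RefSeq on GRCm38.p6). Not in that table were Col1a1, Col4a3, Col5a2, Col14a1, Col22a1 and Col26a1. Windows are shown for the interstitial genes Col1a2 and Col3a1, which were higher after aspiration of rCNT. They are also shown for the head-to-head neighbours Col4a1 and Col4a2, which were lower after inhalation, and for Col7a1. Col7a1 had the largest difference between the inhalation and aspiration effects of rCNT. That value includes the difference between PBS-aspirated and untreated lungs. Capitals mark the letters of the CCAAT box (CCAAT or ATTGG) and the TATA box (TATAAA or TTTATA) wherever they occur. Distance from the transcription start was not considered, so a marked stretch need not be a working promoter element.
Col1a2, chr6:4505368-4505667, + strand: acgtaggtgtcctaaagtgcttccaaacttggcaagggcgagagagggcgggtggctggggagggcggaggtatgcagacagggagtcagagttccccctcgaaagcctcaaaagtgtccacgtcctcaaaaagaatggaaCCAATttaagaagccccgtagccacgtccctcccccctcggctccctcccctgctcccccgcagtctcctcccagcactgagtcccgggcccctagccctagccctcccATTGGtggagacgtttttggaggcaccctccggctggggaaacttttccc
Col3a1, chr1:45311288-45311587, + strand: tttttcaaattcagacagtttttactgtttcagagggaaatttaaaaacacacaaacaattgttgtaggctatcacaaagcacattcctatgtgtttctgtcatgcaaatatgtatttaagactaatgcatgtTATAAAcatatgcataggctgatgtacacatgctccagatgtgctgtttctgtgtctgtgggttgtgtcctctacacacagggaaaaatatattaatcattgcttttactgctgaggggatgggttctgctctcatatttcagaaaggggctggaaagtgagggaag
Col4a1, chr8:11312777-11313076, - strand: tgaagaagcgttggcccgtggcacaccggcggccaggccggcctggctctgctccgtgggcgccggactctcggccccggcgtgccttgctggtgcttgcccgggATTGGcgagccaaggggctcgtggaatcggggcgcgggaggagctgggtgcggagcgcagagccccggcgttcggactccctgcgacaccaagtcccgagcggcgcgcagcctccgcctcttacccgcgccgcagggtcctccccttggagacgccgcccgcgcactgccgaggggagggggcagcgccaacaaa
Col4a2, chr8:11312555-11312854, + strand: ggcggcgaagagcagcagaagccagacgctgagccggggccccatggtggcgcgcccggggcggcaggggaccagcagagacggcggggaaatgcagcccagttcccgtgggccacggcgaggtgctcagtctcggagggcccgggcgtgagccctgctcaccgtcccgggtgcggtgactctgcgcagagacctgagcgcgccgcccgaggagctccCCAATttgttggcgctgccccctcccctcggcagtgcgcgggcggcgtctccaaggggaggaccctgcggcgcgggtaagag
Col7a1, chr9:108953336-108953635, + strand: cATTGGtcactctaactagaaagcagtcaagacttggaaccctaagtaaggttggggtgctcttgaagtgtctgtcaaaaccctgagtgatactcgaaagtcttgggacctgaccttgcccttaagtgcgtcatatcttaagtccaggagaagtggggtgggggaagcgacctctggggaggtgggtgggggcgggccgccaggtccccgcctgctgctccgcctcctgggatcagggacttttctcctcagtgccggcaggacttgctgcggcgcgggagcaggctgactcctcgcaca

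The Col4a1 and Col4a2 windows lie on opposite strands and share 78 bases, so part of each printed sequence is the reverse complement of the other. Col4a5 and Col4a6 are likewise neighbours on chromosome X, but their windows share no base. The CCAAT box was found in 31.0% of the member windows and in 37.4% of 32851 windows in the whole table. The TATA box was in 13.8% of member windows and 13.6% of all windows. The GC box (GGGCGG or CCGCCC) was in 65.5% of member windows against 35.7% of all windows. These are counts of letters on both strands, without a test, and the motifs searched do not overlap each other.

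After aspiration, most fibrillar and beaded filament collagens were higher in rCNT lungs than in PBS lungs, while most type IV chains and the transmembrane collagens were lower. Of the 33 kept genes, 16 were higher, 10 were lower and 7 were not called in aspirated rCNT against aspirated PBS. Over all genes tested, 47.2% were called, 20.6% higher and 26.5% lower. Restricted to the 27 genes well above background throughout, 13 were higher and 9 lower. The groups did not overlap for 24 of the 33 genes, against 42.5% of all genes tested. The median log2 fold change of the 33 was 0.21, beside -0.04 over all genes. Both the 16 higher genes and the 24 without overlap include Col6a5, Col22a1 and Col24a1. These genes passed the brightness filter only through the rCNT samples. They could not have been measured as lower, and for them a lack of overlap was favoured by the filter. Without them 13 of 30 were higher and 10 lower, with a median of 0.12.

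After inhalation the balance was the other way, with 6 genes higher, 17 lower and 10 not called in inhaled rCNT against untreated lungs. Over all genes 60.8% were called, 28.4% higher and 32.5% lower. Among the 27 genes well above background throughout, 4 were higher and 17 lower. The groups did not overlap for 18 of the 33, against 54.8% of all genes. The median was -0.27, beside -0.02 over all genes, and the share of genes without overlap was near that of all genes. With median centring in place of quantile normalisation the median of all genes was -0.15, and 5 members were higher and 20 lower. The members' median was -0.37 within slide 2 and -0.14 within slide 3, beside -0.03 over all genes in both. The shift to lower values was thus smaller within slide 3. Slide 2 held only replicate 1 of the inhaled group and slide 3 only replicate 4 of the untreated group, so these sizes rest on few samples.

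**Figure D1:**
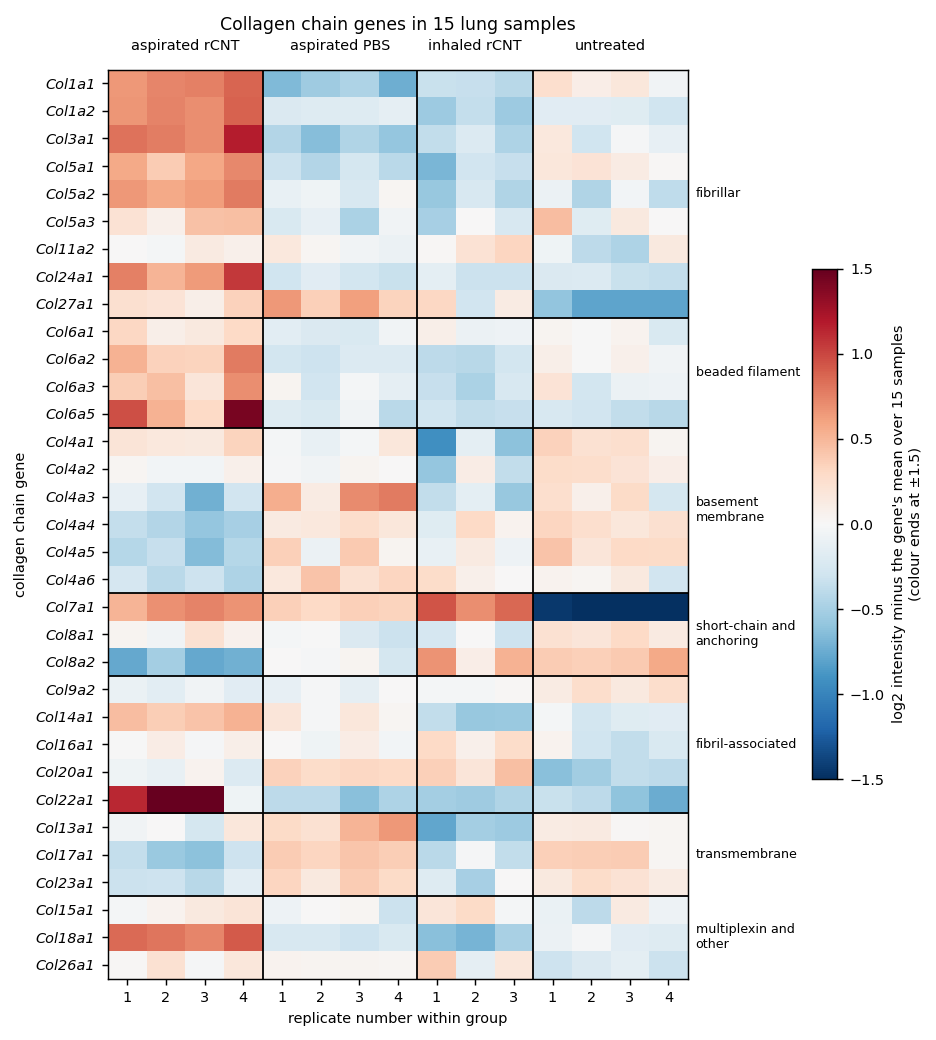
Colour gives each gene's log2 intensity minus its mean over the 15 samples, with samples in columns by group (aspirated rCNT, aspirated PBS, inhaled rCNT, untreated) and the 33 genes in rows by structural class. Most fibrillar and all beaded filament rows are red in aspirated rCNT, most type IV and transmembrane rows are blue there, and Col7a1 is dark blue in the 4 untreated samples alone.

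Crossing both comparisons, which share no sample, 9 genes were higher after aspirated rCNT and lower after inhaled rCNT: Col1a1, Col1a2, Col3a1, Col5a1, Col6a2, Col6a3, Col8a1, Col14a1 and Col18a1. Over all genes tested, 7.39% had that pattern. Of these members only Col14a1 and Col18a1 kept both calls under every setting tried. Within slide 3 the inhalation values of the 9 ran from -0.38 (Col18a1) to -0.14 (Col3a1). A further 5 were lower in both, namely Col4a3, Col4a5, Col13a1, Col17a1 and Col23a1, beside 9.90% of all genes. Only Col7a1 was higher in both (6.34% of all genes), and Col20a1 and Col27a1 were lower after aspiration and higher after inhalation (8.27%). The difference of the rCNT effects, inhalation minus aspiration, was tested in the same fit. It was negative in 17 members, positive in 8 and not called in 8, where 57.0% of all genes were called, 28.5% positive and 28.4% negative. Its median over the 33 was -0.36 and over all genes 0.01. The 17 negative members include Col6a5, Col22a1 and Col24a1, which passed the brightness filter only through the aspirated rCNT samples. For them a negative difference was favoured by the filter. Among the 27 genes well above background throughout, 14 were negative and 7 positive, with a median of -0.36. Both rCNT effects are set against controls from the same slides, and with slide as a block all 25 calls were kept. This difference includes that between PBS-aspirated and untreated lungs, and route and kind of control cannot be told apart in it. Where the text below speaks of a difference between the routes, it means this value with that limit.

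**Figure D2:**
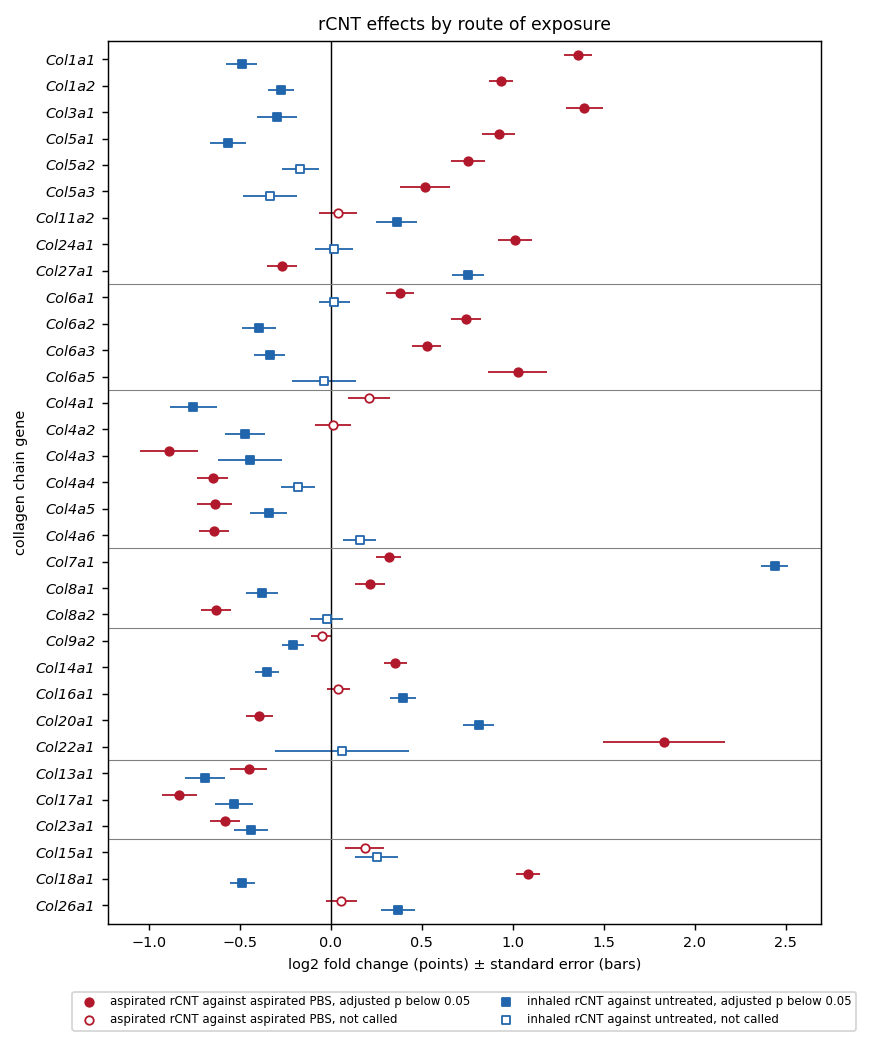
Points are log2 fold changes and bars their standard errors for each of the 33 genes, with circles for aspirated rCNT against aspirated PBS, squares for inhaled rCNT against untreated, and open symbols for genes not called. Col1a1 stands at 1.36 after aspiration and -0.49 after inhalation, and Col7a1 at 0.32 and 2.44.

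Fibrillar collagens form the load-bearing cables of the interstitium. Leaving out Col24a1, which was kept only through the aspirated rCNT samples, 6 of 8 were higher, 1 lower (Col27a1) and 1 not called (Col11a2) in aspirated rCNT against PBS, with a class median of 0.84. After inhalation, of all 9 kept genes, 2 were higher, 4 lower and 3 not called against untreated lungs, with a median of -0.27. Over all genes tested, 20.6% were higher and 26.5% lower after aspiration, and 28.4% and 32.5% after inhalation. The inhalation counts of this class were near those shares, which stand beside each class and list count that follows.

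Col1a1 encodes the major chain of type I collagen, the most abundant collagen of the body. Its level was 15.11, 15.20, 15.22 and 15.33 in aspirated rCNT lungs, against 13.80, 13.92, 13.99 and 13.72 in aspirated PBS lungs. All 4 rCNT samples lay more than 1 log2 unit above every PBS sample. The log2 fold change was 1.36 ± 0.077 (SE; 2.56-fold, adjusted p = 1.08e-09). Inhaled rCNT lungs read 14.13, 14.11 and 14.04, against 14.71, 14.56, 14.63 and 14.41 in untreated lungs. Every inhaled sample was below every untreated one, with a log2 fold change of -0.49 ± 0.083 (adjusted p = 0.000101). A slide term in the fit gave -0.43, slide 2 alone gave -0.55 and slide 3 alone -0.30, where the call was lost (adjusted p = 0.0564). The difference between the routes was -1.85 ± 0.11 (adjusted p = 5.57e-09). It includes the difference of aspirated PBS from untreated lungs, which was -0.72 for this gene.

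Col1a2 encodes the partner chain of type I collagen. It measured 16.25, 16.33, 16.28 and 16.47 in aspirated rCNT lungs, against 15.37, 15.39, 15.39 and 15.44 in aspirated PBS lungs. The groups were far apart relative to their spread (0.93 ± 0.065, 1.91-fold, adjusted p = 1.06e-08). The inhaled rCNT samples measured 15.04, 15.22 and 15.04, against 15.41, 15.41, 15.41 and 15.29 in untreated lungs. The inhaled samples lay lower without overlap, by a smaller step (-0.27 ± 0.070, adjusted p = 0.00302). Within slide 3 the value was -0.16 and not called (adjusted p = 0.282).

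Col3a1 encodes type III collagen, the fibril partner of type I in distensible tissue. Its level was 14.67, 14.62, 14.55 and 15.02 in aspirated rCNT lungs, against 13.41, 13.21, 13.40 and 13.27 in aspirated PBS lungs. All rCNT samples were above all PBS samples, with replicate 4 the highest (1.39 ± 0.10, 2.63-fold, adjusted p = 2.26e-08). After inhalation of rCNT the samples read 13.48, 13.65 and 13.39, against 14.01, 13.55, 13.84 and 13.73 in untreated lungs. These groups overlapped, since inhaled replicate 2 exceeded untreated replicate 2, and the fold change was -0.30 ± 0.11 (adjusted p = 0.0303). The call was lost with slide as a block (-0.28, adjusted p = 0.0644), within each slide, and without inhaled replicate 1 or 3 or untreated replicate 1 or 3. The difference between the routes was -1.69 ± 0.15 (adjusted p = 2.03e-07).

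Type V collagen sits inside type I fibrils and sets their diameter. Col5a1 measured 10.97, 10.78, 10.98 and 11.12 in aspirated rCNT lungs, against 10.08, 9.96, 10.13 and 9.99 in aspirated PBS lungs (0.92 ± 0.089, adjusted p = 4.88e-07). By inhalation, rCNT lungs had levels of 9.72, 10.11 and 10.05, against 10.57, 10.60, 10.52 and 10.42 in untreated lungs (-0.57 ± 0.097, adjusted p = 0.000115). Neither pair of groups overlapped, and the routes differed by -1.49 ± 0.13. Within slide 3 the value was -0.33 and not called (adjusted p = 0.0517). Col5a2 and Col5a3, the partner chains, rose by 0.75 and 0.52 after aspiration (adjusted p = 8.47e-06 and 0.0055) and were not called after inhalation, with values of -0.17 and -0.33.

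Col24a1, a fibrillar chain related to type V, was well above background in the 4 aspirated rCNT samples and in no other sample. It measured 7.18, 6.93, 7.06 and 7.47 in aspirated rCNT lungs, against 6.11, 6.25, 6.14 and 6.09 in aspirated PBS lungs. Since the PBS signal is only a bound, Col24a1 is described as at least 1.94-fold higher with rCNT. No test is given, because the filter kept the gene through the rCNT samples alone. For the bound, each PBS array counted at its dimmest probe that was well above background, or at the Col24a1 signal where that was higher. Inhaled and untreated samples read 6.06 to 6.27, and no fold is given there.

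Col27a1 encodes a fibrillar chain of cartilage and developing epithelia. It measured 7.84, 7.81, 7.69 and 7.94 in aspirated rCNT lungs, against 8.25, 7.96, 8.21 and 7.93 in aspirated PBS lungs. The groups overlapped slightly (-0.27 ± 0.082, adjusted p = 0.0135), and the call was lost without rCNT replicate 2 (adjusted p = 0.054) or without the dye term (adjusted p = 0.0609). Lungs with inhaled rCNT had 7.92, 7.31 and 7.73, against 7.01, 6.82, 6.81 and 6.81 in untreated lungs. Here every inhaled sample was higher (0.75 ± 0.090, 1.69-fold, adjusted p = 2.89e-06), by 0.88 within slide 2 and 0.83 within slide 3. The size depended on the scale, at 1.55 on Agilent's processed signal and 0.63 with median centring, and Col27a1 was well above background in 3 of the 4 untreated samples. Col11a2, a chain of cartilage fibrils, was not called after aspiration (0.04). It was called higher after inhalation (0.36, adjusted p = 0.012), but in neither slide alone and not without inhaled replicate 2 or 3. Cartilage markers were thin: 6 of 12 had no kept probe, and of the 6 measured 2 were higher and 1 lower after aspiration and 1 was lower after inhalation. Their summed intensity was 1487 to 1806 in aspirated rCNT, 2104 to 2376 in PBS, 2036 to 2117 in inhaled rCNT and 2233 to 2476 in untreated lungs, and its part in these values was not tested.

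The beaded filament chains of type VI collagen link cells and basement membranes to the fibrils. Of the 4 kept chains, 3 were free to be measured in either direction, and all 3 were higher in aspirated rCNT than in PBS lungs without overlap. These chains, Col6a1, Col6a2 and Col6a3, rose by 0.38, 0.74 and 0.53 (adjusted p = 0.000836, 2.52e-06 and 4.37e-05). After inhalation Col6a2 fell by 0.40 and Col6a3 fell by 0.34 (adjusted p = 0.0014 and 0.00276), and neither was called within slide 3. Col6a1 stood at 0.02 and was not called, but at -0.46 with median centring.

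Col6a5, a chain that can replace the third chain of type VI, measured 7.45, 7.00, 6.77 and 7.91 in aspirated rCNT lungs, against 6.29, 6.25, 6.42 and 6.07 in aspirated PBS lungs. Only the aspirated rCNT samples were well above background, and they spread over more than 1 log2 unit. Against the bound for PBS, Col6a5 is described as at least 2.02-fold higher with rCNT, without a test, since it too was kept through the rCNT samples alone. Inhaled and untreated samples read 6.06 to 6.24.

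Type IV collagen forms the sheet-like network of basement membranes. Its chains pair by gene: alpha 1 with alpha 2 in nearly all basement membranes, and alpha 3, alpha 4 and alpha 5 in those of alveoli and glomeruli. The 6 genes lie head to head in pairs on chromosomes 8, 1 and X. In aspirated rCNT against PBS, none was higher, 4 were lower and the pair of Col4a1 and Col4a2 was not called (class median -0.64). In inhaled rCNT against untreated, by the brightest probe of each gene, none was higher, 4 were lower and 2 were not called (median -0.39).

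Col4a1 measured 13.36, 13.33, 13.32 and 13.50 in aspirated rCNT lungs, against 13.14, 13.05, 13.13 and 13.34 in aspirated PBS lungs. The ranges overlapped slightly and the gene was not called (0.21 ± 0.12, adjusted p = 0.161), although it was called when the aspiration samples were fitted alone (adjusted p = 0.0322). Inhaled rCNT lungs read 12.25, 13.02 and 12.55, against 13.51, 13.39, 13.42 and 13.21 in untreated lungs. Every inhaled sample was lower, replicate 2 the least so (-0.76 ± 0.13, adjusted p = 9.86e-05). A slide term gave -0.82, slide 2 alone -1.16 and slide 3 alone -0.44, and the gene was called in each.

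Col4a2 measured 13.33, 13.27, 13.26 and 13.38 in aspirated rCNT lungs, against 13.29, 13.25, 13.35 and 13.31 in aspirated PBS lungs, a difference of 0.01 ± 0.10 (adjusted p = 0.939). The inhaled rCNT samples measured 12.72, 13.41 and 12.94, against 13.58, 13.57, 13.51 and 13.40 in untreated lungs. Inhaled replicate 2 fell inside the untreated range and the other two below it (-0.47 ± 0.11, adjusted p = 0.00143). Within slide 3 the value was -0.25 and not called (adjusted p = 0.191). The 2 neighbours thus had the same order of samples within the inhaled group, replicate 1 lowest and replicate 2 highest.

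Col4a3 measured 9.85, 9.68, 9.26 and 9.68 in aspirated rCNT lungs, against 10.51, 10.09, 10.68 and 10.75 in aspirated PBS lungs. The groups did not overlap (-0.89 ± 0.16, adjusted p = 0.000262), the lowest value of any member in that comparison. After inhalation of rCNT the samples read 9.60, 9.83 and 9.41, against 10.22, 10.05, 10.26 and 9.71 in untreated lungs. These ranges overlapped (-0.45 ± 0.17, adjusted p = 0.0362), and the call was lost with slide as a block (-0.35, adjusted p = 0.123) and on leaving out any of 5 samples in turn. Col4a4, Col4a5 and Col4a6 fell by 0.65, 0.64 and 0.64 after aspiration (adjusted p = 1.07e-05, 4.36e-05 and 9.55e-06). After inhalation Col4a5 fell by 0.34 (adjusted p = 0.00924), with the call lost within slide 3 (-0.16, adjusted p = 0.446) and without inhaled replicate 1 (adjusted p = 0.0541). Col4a4 was not called after inhalation by its brightest probe (-0.18). However, 2 other probes of the gene were called higher there, at 0.95 and 0.36 (adjusted p = 3.98e-08 and 0.0002). Col4a6 was not called after inhalation (0.16), and its other probe read -0.15. After aspiration that probe of Col4a6 read -0.12 and was not called (adjusted p = 0.168), while the 2 other Col4a4 probes both read -0.55.

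Endothelium and alveolar type 1 cells, which rest on this basement membrane, were tracked with marker lists. Of 12 endothelial markers, 11 were lower and none higher in aspirated rCNT against PBS, and again 11 and none in inhaled rCNT against untreated. Their summed intensity was 170900 to 193600 in aspirated rCNT, 287500 to 325300 in PBS, 212700 to 259800 in inhaled rCNT and 273300 to 308800 in untreated lungs. Of 9 alveolar type 1 markers, 8 were lower and 1 higher after aspiration, and 4 lower and none higher after inhalation. Their summed intensity was 137000 to 158900 in aspirated rCNT, 220200 to 266300 in PBS, 201000 to 210900 in inhaled rCNT and 228800 to 257900 in untreated lungs. In bulk lung, fewer cells of a type and less RNA per cell cannot be told apart, and the part of these shifts in the type IV values was not tested.

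**Figure D3:**
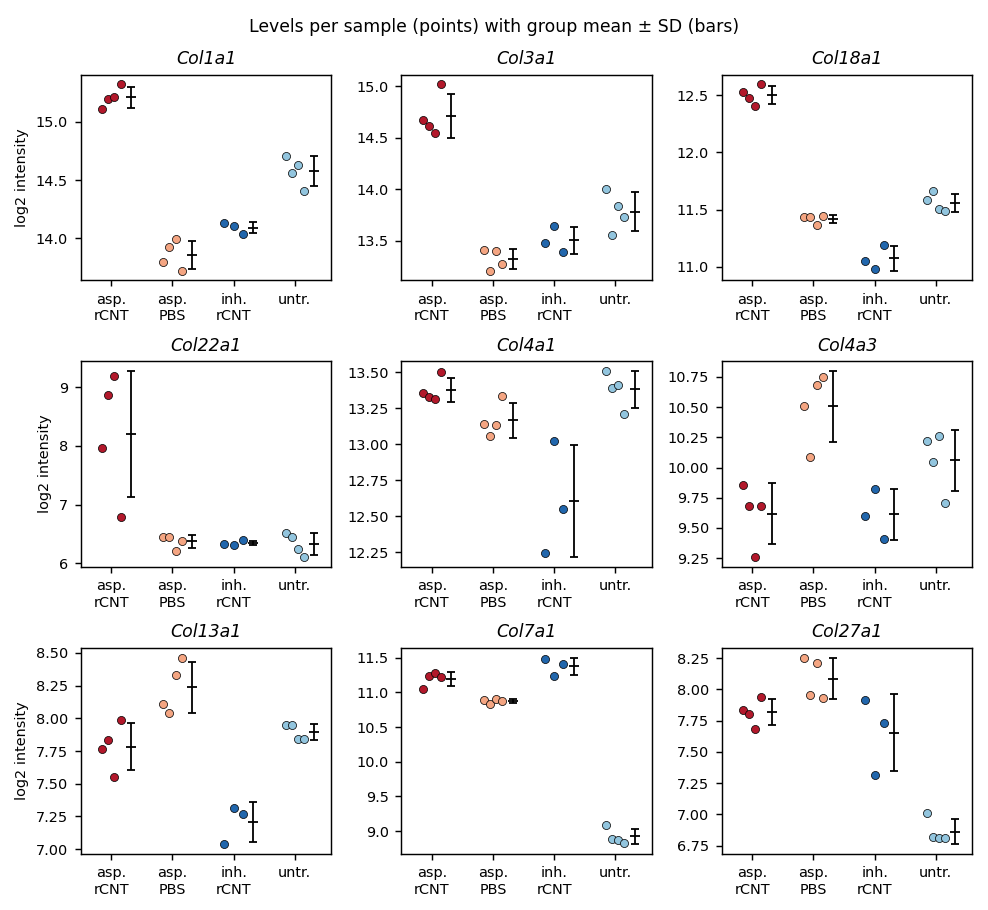
Points are log2 intensities in each sample for 9 genes and bars are group mean ± SD, with groups from left to right aspirated rCNT, aspirated PBS, inhaled rCNT and untreated. Col1a1, Col3a1 and Col18a1 are highest in aspirated rCNT, Col22a1 spreads from 6.78 to 9.20 there, and Col7a1 and Col27a1 are lowest in untreated lungs.

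Type VII collagen builds the anchoring fibrils under stratified and airway epithelia. Col7a1 measured 11.04, 11.23, 11.29 and 11.21 in aspirated rCNT lungs, against 10.89, 10.84, 10.90 and 10.88 in aspirated PBS lungs. The rCNT samples were all higher, by a small step (0.32 ± 0.068, 1.25-fold, adjusted p = 0.00123). By inhalation, rCNT lungs had levels of 11.48, 11.24 and 11.40, against 9.09, 8.89, 8.88 and 8.83 in untreated lungs. The inhaled samples exceeded every untreated one by more than 2 log2 units (2.44 ± 0.074, 5.42-fold, adjusted p = 2.77e-12). The difference was 2.47 within slide 2 and 2.54 within slide 3. The order of group means was inhaled rCNT 11.37 ± 0.13, aspirated rCNT 11.19 ± 0.10, aspirated PBS 10.88 ± 0.028 and untreated 8.92 ± 0.11 (SD), and the ranges of both rCNT groups overlapped. The aspirated PBS group was thus itself far from the untreated group.

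Type VIII collagen is a short-chain collagen of vessel walls and of the basement membrane of the corneal endothelium. Col8a1 was called higher after aspiration (0.21, adjusted p = 0.0437), with overlapping groups and a call that was lost under 9 alternatives, among them median centring and leaving out aspirated rCNT replicate 3 or 4 or PBS replicate 3 or 4. It fell by 0.38 after inhalation (adjusted p = 0.00178), with values of -0.43 within slide 2 and -0.33 within slide 3. Col8a2 measured 8.08, 8.34, 8.09 and 8.14 in aspirated rCNT lungs, against 8.85, 8.84, 8.89 and 8.59 in aspirated PBS lungs, all lower (-0.63 ± 0.084, adjusted p = 1.36e-05). It was not called after inhalation (-0.02), at 9.53, 8.96 and 9.38 in inhaled rCNT and 9.23, 9.21, 9.25 and 9.42 in untreated lungs.

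Fibril-associated collagens coat fibrils and carry short helices between globular parts. Leaving out Col22a1, which was kept only through the aspirated rCNT samples, 1 of 4 was higher, 1 lower and 2 not called after aspirated rCNT. Of all 5 kept, 2 were higher, 2 lower and 1 not called after inhaled rCNT. Counts this small are near the shares of all genes. Col22a1, a collagen of tissue junctions such as the ends of muscle fibres, measured 7.97, 8.86, 9.20 and 6.78 in aspirated rCNT lungs, against 6.45, 6.44, 6.21 and 6.37 in aspirated PBS lungs. The rCNT samples spread over more than 2 log2 units, with replicate 4 close to the PBS samples. Its fitted log2 fold change of 1.83 ± 0.34 (SE) is a description without a test, because the filter kept the gene through these samples and the PBS group was partly dim. It was 1.51 without aspirated rCNT replicate 3 and 3.65 on Agilent's processed signal. It was well above background in 4 of 4 aspirated rCNT, 2 of 4 PBS, 2 of 3 inhaled rCNT and 1 of 4 untreated samples. Lungs with inhaled rCNT had 6.33, 6.31 and 6.39, against 6.51, 6.44, 6.23 and 6.10 in untreated lungs, which was not called (0.06, adjusted p = 0.898).

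Col14a1, which binds fibril surfaces and is a fibroblast product, measured 11.53, 11.44, 11.49 and 11.59 in aspirated rCNT lungs, against 11.25, 11.05, 11.24 and 11.10 in aspirated PBS lungs (0.35 ± 0.063, adjusted p = 0.000233). Inhaled rCNT lungs read 10.70, 10.50 and 10.51, against 11.04, 10.79, 10.88 and 10.90 in untreated lungs (-0.35 ± 0.068, adjusted p = 0.000339). The steps were of like size and opposite direction, without overlap, and another probe of the gene moved the same ways (0.36 and -0.94). The inhalation value was -0.27 within slide 2 and -0.35 within slide 3.

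Col20a1 measured 7.58, 7.53, 7.69 and 7.43 in aspirated rCNT lungs, against 7.99, 7.91, 7.95 and 7.94 in aspirated PBS lungs (-0.39 ± 0.077, adjusted p = 0.00053). The inhaled rCNT samples measured 7.99, 7.82 and 8.09, against 7.01, 7.12, 7.27 and 7.24 in untreated lungs (0.81 ± 0.083, 1.75-fold, adjusted p = 6.01e-07). Both steps were without overlap, and the second value was 0.88 within slide 2 and 0.70 within slide 3. Its other probe read -0.22 and 0.74. Col9a2, a chain of the cartilage surface collagen type IX, fell by 0.21 after inhalation (adjusted p = 0.00772) and was not called after aspiration (-0.05). The inhalation call was lost with median centring (-0.18, adjusted p = 0.071) and within slide 2 (-0.16, adjusted p = 0.151). Col16a1 was called higher after inhalation (0.40, adjusted p = 0.00015), but it stood at -0.01 with median centring and another of its probes at -0.26.

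The transmembrane collagens sit in the plasma membrane of epithelial and other cells and attach them to matrix. All 3 measured were lower in both comparisons and called in both, and in none was the difference between the routes called (values -0.24 to 0.30). Col17a1, a hemidesmosome component of basal epithelial cells, measured 7.12, 6.91, 6.86 and 7.16 in aspirated rCNT lungs, against 7.86, 7.80, 7.89 and 7.84 in aspirated PBS lungs (-0.83 ± 0.095, adjusted p = 2.82e-06). After inhalation of rCNT the samples read 7.07, 7.45 and 7.10, against 7.83, 7.84, 7.86 and 7.50 in untreated lungs (-0.53 ± 0.10, adjusted p = 0.000333). The lower groups were separate from the higher ones in both, with inhaled replicate 2 and untreated replicate 4 nearly meeting. Within slide 3, where those lie, the value was -0.24 and not called (adjusted p = 0.211).

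Col13a1 measured 7.77, 7.83, 7.55 and 7.98 in aspirated rCNT lungs, against 8.11, 8.04, 8.33 and 8.46 in aspirated PBS lungs (-0.45 ± 0.10, adjusted p = 0.00182). By inhalation, rCNT lungs had levels of 7.04, 7.31 and 7.27, against 7.95, 7.95, 7.84 and 7.84 in untreated lungs (-0.69 ± 0.11, adjusted p = 6.22e-05), without overlap. The inhalation call held within each slide (-0.92 and -0.52). Col23a1 measured 9.13, 9.14, 9.04 and 9.29 in aspirated rCNT lungs, against 9.77, 9.59, 9.84 and 9.73 in aspirated PBS lungs (-0.58 ± 0.085, adjusted p = 3.54e-05). It was 9.26, 8.95 and 9.45 in inhaled rCNT lungs, against 9.60, 9.72, 9.67 and 9.57 in untreated lungs (-0.44 ± 0.092, adjusted p = 0.000669). Both groups of exposed lungs were below their controls, and within slide 3 the value of -0.30 was not called (adjusted p = 0.129).

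Col18a1 encodes a basement membrane collagen whose cleaved end, endostatin, is known to restrain vessel growth. Its level was 12.53, 12.47, 12.41 and 12.60 in aspirated rCNT lungs, against 11.44, 11.43, 11.37 and 11.45 in aspirated PBS lungs. All rCNT samples were about 1 log2 unit above all PBS samples (1.08 ± 0.065, 2.12-fold, adjusted p = 2.02e-09). Lungs with inhaled rCNT had 11.05, 10.98 and 11.19, against 11.58, 11.66, 11.50 and 11.49 in untreated lungs, again without overlap but lower (-0.49 ± 0.070, adjusted p = 2.08e-05). Within slides the inhalation value was -0.56 and -0.38, called in both. Another probe read 0.91 and -0.41, and the routes differed by -1.57 ± 0.095 (adjusted p = 5.13e-09). Col15a1, the related multiplexin, was not called in either comparison (0.18 and 0.25), and Col26a1 was called higher after inhalation alone (0.37, adjusted p = 0.00278).

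Both control groups were compared directly, because each rCNT effect rests on its own control. In aspirated PBS against untreated lungs 9 members were higher, 7 lower and 17 not called, where 59.4% of all genes were called, 26.3% higher and 33.1% lower. The members' median was 0.01 and that of all genes -0.04. Groups did not overlap for 16 members, against 49.3% of all genes. Leaving out untreated replicate 1, whose title names PBS, kept all 16 calls. Route, slide and vehicle go together in this comparison and cannot be told apart.

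The largest values were those of Col7a1 (1.96 ± 0.068, 3.88-fold, adjusted p = 7.46e-12), Col27a1 (1.23 ± 0.082, adjusted p = 8.79e-09) and Col20a1 (0.79 ± 0.077, adjusted p = 4.22e-07), all higher in PBS lungs. Their levels above show the 4 PBS samples over the 4 untreated ones for each. Col1a1 and Col5a1 were lower in PBS lungs, at -0.72 and -0.49 (adjusted p = 1.07e-06 and 0.000228), and Col8a2 at -0.48 (adjusted p = 0.000142). For Col5a1 the call was lost with median centring (-0.27, adjusted p = 0.0995). The same 3 genes that were high in PBS lungs were also higher in inhaled rCNT than in untreated lungs, and both comparisons rest on the same untreated samples.

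Set against aspirated PBS instead, 4 members were higher in inhaled rCNT lungs, 11 lower and 18 not called, where 55.2% of all genes were called, 27.5% higher and 27.7% lower. The median was -0.12, beside -0.01 over all genes, and 13 members did not overlap, against 50.9% of all genes. With median centring the median of all genes moved to -0.29 and the members to 1 higher and 20 lower. Slide and route cannot be told apart here either.

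The largest values in that comparison were all lower in inhaled rCNT. Col13a1 stood at -1.03 ± 0.11 (adjusted p = 1.92e-06), Col4a3 at -0.89 ± 0.17 (adjusted p = 0.000474) and Col17a1 at -0.62 ± 0.10 (adjusted p = 0.000117). Col14a1 stood at -0.61 ± 0.068 (adjusted p = 2.78e-06), Col4a1 at -0.54 ± 0.13 (adjusted p = 0.00213) and Col23a1 at -0.53 ± 0.092 (adjusted p = 0.000178). The transmembrane collagens, Col4a1, Col4a3 and Col14a1 were thus lower in inhaled rCNT against either control group, as were Col1a2, Col6a3 and Col18a1. Col1a1 was called higher against PBS (0.23, adjusted p = 0.0295), opposite to its value against untreated lungs, and turned to -0.24 with median centring. Col3a1 and Col5a1 were not called against PBS (0.16 and -0.08), while Col1a2 and Col18a1 were lower (-0.29 and -0.35, adjusted p = 0.00222 and 0.000633).

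The enzymes and chaperones that fold and hydroxylate collagen chains in the endoplasmic reticulum were followed as a list of 22. In aspirated rCNT against PBS, 8 were higher, 6 lower and 8 not called (median 0.11). In inhaled rCNT against untreated, 5 were higher, 14 lower and 3 not called (median -0.33). The shares over all genes were 20.6% higher and 26.5% lower after aspiration, and 28.4% and 32.5% after inhalation. In aspirated PBS against untreated, 1 was higher and 12 lower (median -0.32), beside 26.3% and 33.1% of all genes. In inhaled rCNT against PBS, 9 were higher and 5 lower (median 0.05), beside 27.5% and 27.7%. The list's summed intensity was 66130 to 71420 in aspirated rCNT and 55720 to 58850 in PBS lungs. It was 65770 to 68940 in inhaled rCNT and 73620 to 85430 in untreated lungs. Route and kind of control cannot be told apart here. Serpinh1, the collagen chaperone HSP47, stood at 0.38 after aspiration and -0.29 after inhalation (adjusted p = 0.00208 and 0.0157). P4hb, a subunit of prolyl 4-hydroxylase, stood at 0.53 and -0.51 (adjusted p = 9.7e-05 and 0.000187), and Ppib, a prolyl isomerase, at 0.41 and -0.48 (adjusted p = 9.8e-06 and 2.73e-06). Fkbp10, another isomerase, stood at 0.51 and -0.40, and Creb3l1, a transcription factor that drives type I collagen genes in bone, at 0.88 and -0.09, not called after inhalation.

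Others of the list went different ways. Plod1, a lysyl hydroxylase, was not called after aspiration (0.14) and fell by 1.02 after inhalation (adjusted p = 5.37e-07). Plod2, which hydroxylates the chain ends, fell by 0.61 after aspiration and was higher by 0.44 after inhalation (adjusted p = 0.000115 and 0.00264). P4ha2, a catalytic prolyl 4-hydroxylase subunit, likewise stood at -0.31 and 0.66 (adjusted p = 0.00366 and 6.54e-06). Colgalt2, which adds galactose to hydroxylysine, was lower in both (-1.19 and -1.13, adjusted p = 3.1e-09 and 1.07e-08).

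Of 6 genes for trimming procollagen ends, 3 were higher and 1 lower after aspiration, and 2 higher and 3 lower after inhalation. Bmp1, the C-terminal proteinase, was higher in both (0.29 and 1.17, adjusted p = 0.0019 and 2.11e-09). Adamts2, an N-terminal proteinase, stood at 0.26 and -0.73 (adjusted p = 0.00409 and 3.94e-07). Pcolce2, an enhancer of C-terminal trimming, was lower in both (-1.66 and -1.09, adjusted p = 3.51e-11 and 8.68e-09).

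Of the 5 cross-linking oxidases, 3 were higher and none lower after aspiration (median 0.34). After inhalation 1 was higher and 3 lower (median -0.34). In aspirated PBS against untreated, 1 was higher and 3 lower (median -0.27), beside 26.3% and 33.1% of all genes. Lox, the founding lysyl oxidase, was higher by 0.90 after aspiration (adjusted p = 2.54e-05) and not called after inhalation (-0.16). Loxl1, linked mainly to elastin fibres, fell by 1.36 after inhalation (adjusted p = 7.73e-08) and was not called after aspiration (0.22). Loxl2 was higher in both (0.72 and 0.46, adjusted p = 1.53e-05 and 0.00135).

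Of 9 receptors and uptake genes, 2 were higher and 3 lower after aspiration, and 2 higher and 4 lower after inhalation. These counts were near the shares of all genes. Mrc1, an endocytic receptor of macrophages that takes up collagen, was higher in both (1.09 and 0.60, adjusted p = 4.52e-08 and 3.88e-05). Itga1, the alpha subunit of a collagen-binding integrin, was lower in both (-0.77 and -0.44, adjusted p = 5.43e-08 and 3.29e-05). Ddr2, a receptor kinase for fibrillar collagen, stood at -0.48 and 0.49 (adjusted p = 5.51e-05 and 6.25e-05).

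**Figure D4:**
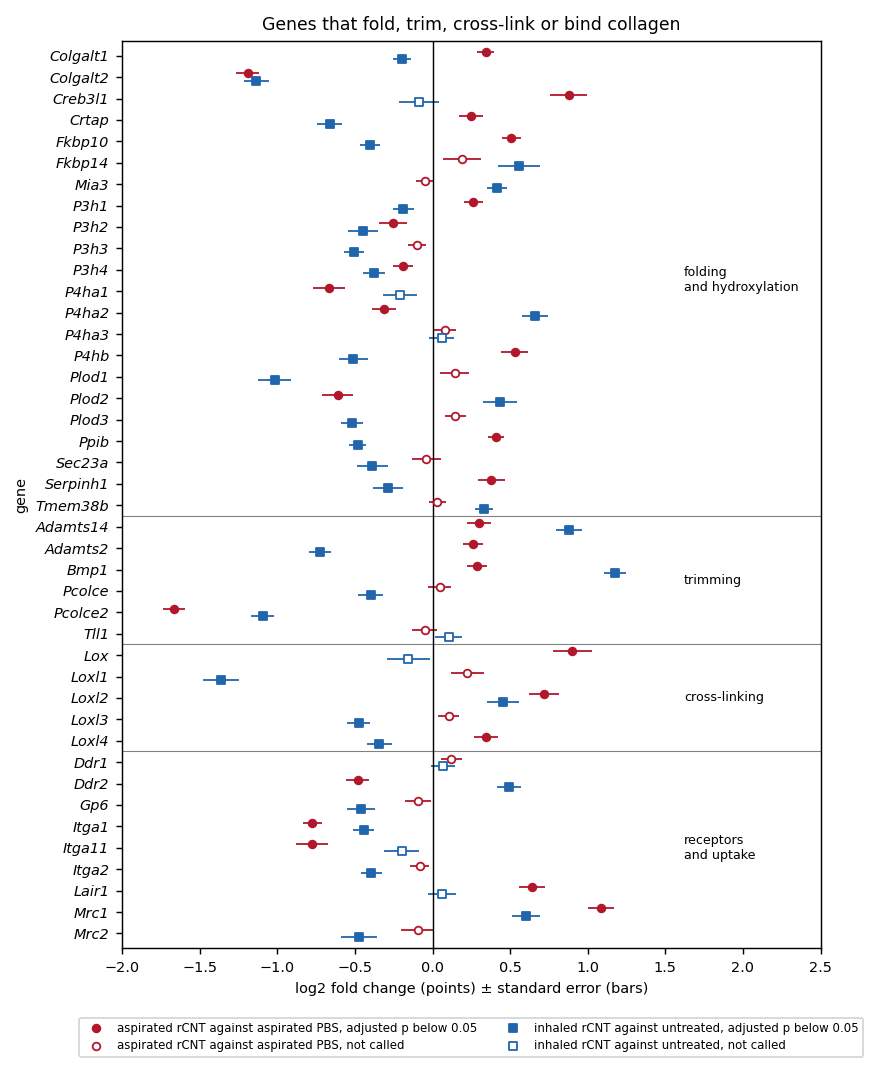
Points are log2 fold changes and bars standard errors for genes that fold, trim, cross-link or bind collagen, with circles for aspirated rCNT against aspirated PBS, squares for inhaled rCNT against untreated, and open symbols for genes not called. Serpinh1, P4hb, Ppib and Fkbp10 lie right of 0 after aspiration and left of it after inhalation.

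Markers of the cells that make collagen were lower or mixed. Of 14 lung fibroblast markers, 1 was higher, 9 lower and 4 not called in aspirated rCNT against PBS (median -0.44), with Inmt at -1.91 and Npnt at -0.87. Their summed intensity was 73230 to 98230 in aspirated rCNT lungs, against 171000 to 242100 in PBS lungs. After inhalation 1 was higher, 11 lower and 2 not called (median -0.42), with Dcn at -0.62 and Tcf21 at -0.87. The sum was 125900 to 140500 in inhaled rCNT lungs, against 178100 to 189800 in untreated lungs. Of 11 smooth muscle and myofibroblast markers, 4 were higher and 2 lower after aspiration, with Tnc at 1.37 and Actg2 at 0.86, and 2 were higher and 4 lower after inhalation. Their sums overlapped between groups, at 77270 to 105000 in aspirated rCNT, 76870 to 88510 in PBS, 68960 to 89420 in inhaled rCNT and 82100 to 92540 in untreated lungs. The part of these shifts in the collagen values was not tested.

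Other tissue moved with the groups as well. All 12 cardiac muscle markers were lower in aspirated rCNT against PBS, and 11 were higher in PBS against untreated. Their summed intensity was 36930 to 52270 in aspirated rCNT, 91700 to 112700 in PBS, 24640 to 42510 in inhaled rCNT and 25570 to 62340 in untreated lungs. Of 10 macrophage and monocyte markers, 8 were higher and 2 lower after aspiration, and 3 higher and 4 lower after inhalation. Their medians were 1.38 and -0.23. The sums of aspirated rCNT (103800 to 112700) and PBS lungs (99710 to 112900) nonetheless overlapped. Sums were 88630 to 89720 in inhaled rCNT and 89750 to 106300 in untreated lungs. All 10 cell cycle markers were higher after aspirated rCNT and 9 after inhaled rCNT, with sums of 27800 to 31770 in aspirated rCNT, 5238 to 6463 in PBS, 12790 to 15150 in inhaled rCNT and 4824 to 5376 in untreated lungs. Of 8 mesothelial markers, 6 were lower after aspiration and 5 lower and 2 higher after inhalation, with sums of 17480 to 20570 in aspirated rCNT, 18460 to 20920 in PBS, 19480 to 25040 in inhaled rCNT and 22060 to 22740 in untreated lungs. The part of any of these in the collagen values was not tested.

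No kept probe was found for 11 members of the annotated family. Col12a1 had no matched probe. The cartilage chains Col2a1, Col9a1, Col9a3, Col10a1 and Col11a1 did not reach the brightness minimum, and neither did Col6a4, Col6a6, Col19a1, Col25a1 and Col28a1. Closest to the limit of 3 samples in a group were Col6a6 and Col9a1, at 2 samples, while Col15a1 entered with 3 of 3 inhaled rCNT samples.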

How the data were processed

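Total RNA of 15 mouse lung samples was measured on 14 2-colour Agilent arrays (3 slides) with 1 channel a sample, and 1 array held both untreated replicate 4 and inhaled rCNT replicate 2. Per the file headers, the deposited intensity values were extracted with Agilent Feature Extraction 11.0.1.1, on an array design that refers to mm9. The deposited flags for spots well above background, saturated or outlying come from the same software. The series table as deposited holds the authors' log2-like values, whose log base and centring stay unknown. Its columns have medians of 6.626 to 6.651 and matched the own-channel log2 intensity with correlations of 0.9996 to 0.9998. It served as an alternative only. The submitters' processing notes name Feature Extraction and limma.

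Here the own-channel median intensity was corrected with normexp (offset 50) on all 62976 spots, log2-transformed and then quantile-normalised across 15 channels. Controls and outlier-flagged spots (106 to 154 a sample) were left out. Of 55681 probes 34271 were kept. Of 29123 probes with a RefSeq accession 27656 matched a symbol in a GRCm38.p6 table that was used for names, and 15838 of the 25251 genes or transcripts tested had one. Groups and dye entered 1 limma fit (limma 3.58.1, R 4.3.3; two-sided, adjusted p below 0.05 by Benjamini-Hochberg over 25251). For arrays, their number limits the precision. The script was tested on simulated data. Figures used Python 3.11.15 and matplotlib 3.10.9.

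Same-numbered samples of aspirated rCNT and PBS had deviations from their group means that correlated at -0.428 to -0.074, and those of inhaled rCNT and untreated at -0.056 to 0.085, so the numbers were not taken to pair samples. The members and gene lists were chosen with earlier results of these data known. Values in every sample were given for Col1a1, Col1a2, Col3a1, Col4a1 and Col4a2 and for the 6 called members with the largest absolute change in each comparison. Of other lists the 2 genes with the smallest p in a comparison could be named, and genes of the collagen-handling lists freely. Alternatives covered background correction, scaling, the deposited table, the filter, the rule for probes, variance model, dye, slide, replicate block and each sample left out. A fit of the aspiration samples alone was chosen after seeing the data.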

Additional observations from a re-analysis of the deposited data

Results flagged for a closer look

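Within a group of 4, 4 values of named members lay far from the other 3 samples by Dixon's gap ratio, which chance passes in about 1 in 20 groups. Many members were looked through in several groups, so a few such values arise at that rate alone. Col18a1 was low in aspirated PBS replicate 3 (gap ratio 0.836), Col1a2 in untreated replicate 4 (0.942) and Col17a1 in untreated replicate 4 (0.920). Col27a1 was high in untreated replicate 1 (0.962), the sample whose title names a PBS aspiration. Its level there was 7.01, against 6.81 to 6.82 in the other untreated samples and 7.93 to 8.25 in aspirated PBS lungs.

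The effect of rCNT differed between the routes (inhalation effect minus aspiration effect, log2, adjusted p below 0.05) in 25 members. In the fibrillar class the difference was -1.85 for Col1a1, -1.21 for Col1a2, -1.69 for Col3a1, -1.49 for Col5a1, -0.92 for Col5a2, -0.85 for Col5a3, -0.99 for Col24a1 and 1.02 for Col27a1. Among type VI chains it was -0.36 for Col6a1, -1.14 for Col6a2, -0.86 for Col6a3 and -1.06 for Col6a5. Among type IV chains it was -0.96 for Col4a1, -0.48 for Col4a2, 0.47 for Col4a4 and 0.80 for Col4a6. Among the others it was 2.12 for Col7a1, -0.59 for Col8a1, 0.61 for Col8a2, -0.71 for Col14a1, 0.35 for Col16a1, 1.20 for Col20a1, -1.77 for Col22a1, -1.57 for Col18a1 and 0.31 for Col26a1. For Col26a1 the call (adjusted p = 0.0456) was lost in 15 of 26 settings, among them the replicate block (adjusted p = 0.0903), and another probe of Col16a1 was called the opposite way (-0.40, adjusted p = 0.00801). The other probe of Col4a6 read -0.04 for this difference and was not called (adjusted p = 0.774). Col6a5, Col22a1 and Col24a1 passed the brightness filter through the aspirated rCNT samples alone, so their values are descriptions of signals partly near background. For Col7a1, Col20a1 and Col27a1 aspirated PBS exceeded untreated by 1.96, 0.79 and 1.23, and route and kind of control cannot be told apart in these differences. With slide as a block all 25 calls were kept.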

How the results depend on the processing

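Of the 26 members called in aspirated rCNT against aspirated PBS, 24 were called in the same direction under each of 27 settings, the exceptions being Col8a1 and Col27a1. The like counts were 8 of 23 for inhaled rCNT against untreated, 21 of 25 for the difference between the routes, 9 of 16 for aspirated PBS against untreated and 9 of 15 for inhaled rCNT against aspirated PBS. The 24 and the 21 both include Col6a5, Col22a1 and Col24a1, which the filter kept through the aspirated rCNT samples alone. For these genes a kept call is a description and no support. Within slide 3 (inhaled replicates 2 and 3, untreated replicate 4) 11 members were called after inhalation and 5 were lower, in place of 23 and 17, while all 23 kept their sign within slides 2 and 3. Median centring gave 1 higher and 20 lower in inhaled rCNT against PBS, in place of 4 and 11, and the replicate block gave 2 higher. With the replicate block the counts of calls were 25, 21, 24, 16 and 12 for the 5 comparisons in the above order, and the block moved no other count by over 1.5 times. Leaving out 1 sample at a time gave 25 to 26, 20 to 25, 24 to 26, 15 to 19 and 13 to 16 calls, with 15 to 16, 6 to 7, 7 to 9, 8 to 9 and 2 to 4 higher and 9 to 10, 14 to 19, 16 to 17, 7 to 10 and 11 to 14 lower. Under median centring the share of all calls that were higher was 27.5% in place of 46.6% after inhalation, 30.6% in place of 50.1% for the difference, 59.1% in place of 44.3% for PBS against untreated and 21.1% in place of 49.9% for inhaled rCNT against PBS. Signs turned with median centring for Col16a1 (-0.014 after inhalation, -0.090 for the difference, -0.35 for inhaled rCNT against PBS), Col6a1 (-0.46 after inhalation, -0.33 against PBS), Col24a1 (-0.26, PBS against untreated) and, for inhaled rCNT against PBS, Col1a1 (-0.24), Col20a1 (-0.21) and Col7a1 (-0.057). With the mean over kept probes they turned for Col16a1 (-0.025 for PBS against untreated, -0.022 for the difference), Col4a4 (0.38 after inhalation, 0.30 against PBS) and Col4a6 (-0.023, PBS against untreated). Of 105 called values, median centring moved 40 by over 1.5 times (29 larger, 6 smaller, 5 of turned sign), Agilent's processed signal 26 (25 larger) and the mean over kept probes 9. The cause was not tested. Correction on the mean spot signal was not run, since no mean signal was used here; the shared array could not be fitted as a random block, and slide blocks were not run for comparisons across slides. Depth here is signal over background, which limits the 6 members not well above it in all samples.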
